A study of Rattus norvegicus with 24 samples.

Results

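miR-101a and miR-101b are 2 near-identical microRNAs (miRs), measured here in rat INS1 cells exposed to cytokines with or without the lysine deacetylase inhibitor (KDACi) Givinostat. Every miR of the array named rno-miR-101a or rno-miR-101b, of either arm, was taken, which gave 4 of 758 miRs: rno-miR-101a-3p, rno-miR-101b-3p, rno-miR-101a-5p and rno-miR-101b-5p. INS1 is an insulin-secreting line from a rat insulinoma, used in place of β-cells. The 24 one-colour arrays fell into 8 groups of 3. The groups 6h_Ctrl and 24h_Ctrl received neither agent, 6h_Cyt and 24h_Cyt received 150 pg/ml IL-1β with 0.1 ng/ml IFN-γ, 6h_Giv_Ctrl and 24h_Giv_Ctrl received 125 nM Givinostat, and 6h_Giv_Cyt and 24h_Giv_Cyt received Givinostat 1 h ahead of both cytokines. The submitters describe the replicates of a group as technical, so that the p-values below measure only the spread between such samples. In a bulk RNA sample, fewer cells that express a miR and less of it per cell cannot be told apart.

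A miR is cut from a hairpin precursor as a 3p and a 5p arm, usually with one arm kept, and the kept arm guides silencing of mRNAs that pair with its seed, the bases near its 5′ end. The 3p arm is the arm of miR-101 known to silence. Its best-known target is Ezh2, the subunit of Polycomb repressive complex that methylates histone H3 on lysine, and Ezh2 holds back cell cycle inhibitors in β-cells. Both miR-101a and miR-101b have been linked to cytokine-exposed β-cells.

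The mature sequences from the rat RefSeq table (GRCr8) are shown because the pair differs at 1 of 21 bases and the arrays must tell them apart. The seed, bases 2 to 8, is in capitals.
rno-miR-101a-3p: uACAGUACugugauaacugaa
rno-miR-101b-3p: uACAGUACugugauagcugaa
rno-miR-144-3p: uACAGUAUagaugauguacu
rno-miR-101a-5p: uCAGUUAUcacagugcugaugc
rno-miR-101b-5p: uCGGUUAUcaugguaccgaugc
The 3p arms shared the whole seed and 20 bases in all, and differed by A16G, counted from 1 at the 5′ end of miR-101a-3p. Of the 685 array miRs with a mature sequence in the table, no other had this seed. miR-144-3p, a miR of red blood cells, was the only other one that shared bases 2 to 7. The 5p arms had different seeds from each other and from the 3p arms.

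The base that separates the pair lay inside every 3p probe. Each 3p arm was read by 2 probes of 8 spots, printed below as the scanner files give them, with the base that separates the pair in capitals.
miR-101a-3p, shorter probe: ttcagTtatcacagtactgt
miR-101a-3p, longer probe: ttcagTtatcacagtactgta
miR-101b-3p, shorter probe: ttcagCtatcacagtact
miR-101b-3p, longer probe: ttcagCtatcacagtactg
The probes matched their own miR without a mismatch, over bases 2 to 21 and 1 to 21 of miR-101a-3p and over bases 4 to 21 and 3 to 21 of miR-101b-3p. How far each probe also bound the other miR was not tested. The array's annotation places the longer probe of miR-101a-3p at chr5:121990632-121990651 on the minus strand and that of miR-101b-3p at chr1:232779647-232779664 on the plus strand of rn4, intervals 1 position shorter than the probes. In RefSeq (GRCr8), the hairpin of miR-101a lies within the lncRNA gene LOC120102934, with Jak1 as the nearest protein-coding gene on one side. The hairpin of miR-101b (Mir101-2) lies within the protein-coding gene Rcl1, between Ak3 and Jak2. Whether these positions are exonic or intronic was not analysed here.

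The array set bears on the values that follow in 3 ways. The β-cell miRs miR-375-3p and miR-7a-5p were well above background on all 24 arrays, while the liver marker miR-122-5p, the muscle marker miR-133a-3p and the blood markers miR-142-3p, miR-223-3p and miR-451-5p were so on 0. Of the other muscle markers, miR-1-3p was well above background on 3 arrays and miR-206-3p on all 24. The scanner marks spots that stand clear of background, and 8 or more of a miR's 16 spots had to be marked for it to count as well above background on an array. The arrays lay on 4 slides, of which slide 1 carried another project label and scan day than the rest. On slide 1 lay the first 2 replicates of 24h_Cyt together with the first of 6h_Giv_Ctrl, and no slide held both 24h_Cyt and 24h_Ctrl. Array brightness, taken as the upper quartile of background-subtracted intensity over miRs detected on all arrays, was 596 to 1003 in 24h_Cyt and 271 to 347 in 24h_Ctrl.

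Levels are given as quantile-normalized log2 signals, without background correction, so that a log2 difference understates the change of a dim miR. miR-101a-3p was a dim miR and was well above background on 9 of 24 arrays. It was 5.90, 6.12 and 6.11 in 6h_Ctrl, a mean of 6.04 ± 0.13 (SD, n = 3). It was 6.22, 5.94 and 6.13 in 6h_Cyt, a mean of 6.10 ± 0.14. The 6 h groups without Givinostat overlapped, and 1 of these 6 arrays was well above background for miR-101a-3p.

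In 6h_Giv_Ctrl the signals of miR-101a-3p were 6.55, 5.90 and 5.95, a mean of 6.13 ± 0.36 (SD, n = 3). In 6h_Giv_Cyt they were 6.16, 6.04 and 5.78, a mean of 5.99 ± 0.19. The first 6h_Giv_Ctrl array, which lay on slide 1 and came from cells without cytokines, read as high as the 24h_Cyt arrays on this log2 scale. On the scanner's background-subtracted intensity, scaled between arrays, it read 25.0 for miR-101a-3p, below the 38.2 to 40.7 of 24h_Cyt. It exceeded the mean of its other 2 replicates by 0.62 on the log2 scale for miR-101a-3p and by 0.62 for miR-101b-3p, against a median of 0.14 over the 168 detected miRs, those well above background on all 3 arrays of 1 or more groups. The part of the slide in this was not tested.

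At 24 h, miR-101a-3p was 5.93, 5.81 and 5.97 in 24h_Ctrl, a mean of 5.90 ± 0.08 (SD, n = 3), and was not well above background on any of these arrays. It was 6.59, 6.44 and 6.44 in 24h_Cyt, a mean of 6.49 ± 0.09, with all 16 spots above background on each array. Every 24h_Cyt array exceeded every 24h_Ctrl array. It was 5.90, 6.03 and 6.21 in 24h_Giv_Ctrl, a mean of 6.05 ± 0.16, with no array well above background. It was 6.09, 6.19 and 6.32 in 24h_Giv_Cyt, a mean of 6.20 ± 0.11, with all 16 spots above background on each array. The 24h_Giv_Cyt arrays lay below those of 24h_Cyt and overlapped those of 24h_Giv_Ctrl.

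miR-101b-3p was well above background on all 24 arrays. It was 6.48, 6.86 and 6.85 in 6h_Ctrl (mean 6.73 ± 0.21, SD, n = 3). It was 6.84, 6.51 and 6.83 in 6h_Cyt (mean 6.72 ± 0.19). It was 7.10, 6.49 and 6.48 in 6h_Giv_Ctrl (mean 6.69 ± 0.36). The slide 1 array of 6h_Giv_Ctrl, from cells without cytokines, was the highest of all 24 arrays on this log2 scale, above every 24h_Cyt array. On the scaled background-subtracted intensity it read 62.6, below the 68.4 to 72.7 of 24h_Cyt. In 6h_Giv_Cyt miR-101b-3p was 6.79, 6.68 and 6.31 (mean 6.60 ± 0.25). The 4 groups at 6 h overlapped.

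At 24 h, miR-101b-3p was 6.61, 6.39 and 6.64 in 24h_Ctrl (mean 6.55 ± 0.14, SD, n = 3). It was 7.03, 6.84 and 6.90 in 24h_Cyt (mean 6.92 ± 0.10), with no overlap between these groups. It was 6.49, 6.70 and 6.87 in 24h_Giv_Ctrl (mean 6.69 ± 0.19) and 6.50, 6.76 and 6.82 in 24h_Giv_Cyt (mean 6.69 ± 0.17). Those last groups spanned nearly the same range.

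**Figure D1:**
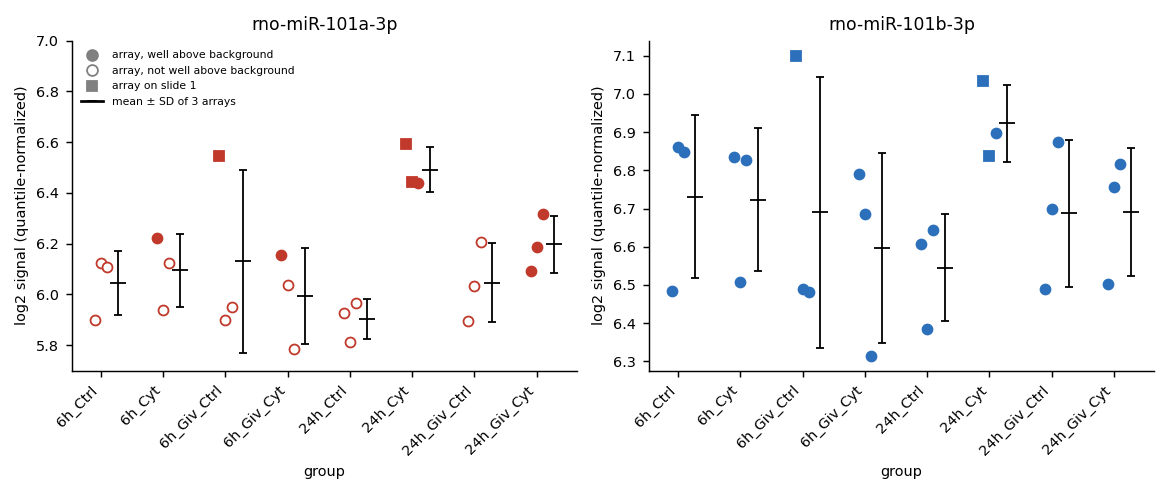
Quantile-normalized log2 signal of miR-101a-3p (left) and miR-101b-3p (right) on each array by group, with the mean and SD of 3 arrays in black. Filled points were well above background on that array and squares lay on slide 1. The 24h_Cyt arrays of miR-101a-3p lie between 6.44 and 6.59, above all 3 arrays of 24h_Ctrl, and the slide 1 array of 6h_Giv_Ctrl lies at 6.55.

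In the order of group means, both miRs were highest in 24h_Cyt and lowest in 24h_Ctrl. For miR-101a-3p, 24h_Cyt was followed by 24h_Giv_Cyt, 6h_Giv_Ctrl, 6h_Cyt, 24h_Giv_Ctrl, 6h_Ctrl, 6h_Giv_Cyt and 24h_Ctrl. The step from 24h_Cyt to 24h_Giv_Cyt was 0.29 on the log2 scale, against a standard error of a difference of 0.14, and the arrays of these groups did not overlap. All later steps were 0.09 or less and their neighbours overlapped. For miR-101b-3p, the order was 24h_Cyt, 6h_Ctrl, 6h_Cyt, 24h_Giv_Cyt, 6h_Giv_Ctrl, 24h_Giv_Ctrl, 6h_Giv_Cyt and 24h_Ctrl, and all neighbours overlapped.

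Whether cytokines change the pair was asked first of cells without Givinostat at 24 h. miR-101a-3p rose, with a log2 fold change (log2FC) of 0.59 in 24h_Cyt vs 24h_Ctrl (SE 0.14, 95% interval 0.30 to 0.88, limma adjusted p = 0.0167). Since no 24h_Ctrl array measured it well above background, a bound on its fold was formed from the means and came to 1.43-fold. It sets the 24h_Cyt mean against the lowest signal of a detected miR on each 24h_Ctrl array or the miR's own signal, whichever was higher. The bound carries no sampling error, and the 95% interval of the measured fold was 1.23 to 1.84. miR-101b-3p had a log2FC of 0.38 (SE 0.17, interval 0.03 to 0.73, unadjusted p = 0.036, adjusted p = 0.174 by limma) and did not pass. A miR was called at an adjusted p below 0.05 over all 758 miRs and an absolute log2FC above 0.1375, and 3.96% of the miRs were called, 20 higher (2.64%) and 10 lower (1.32%). This split moved with the scaling, to 39 higher and 37 lower with the background-subtracted intensity scaled to the detected miRs, 5 and 14 with that intensity scaled to all miRs, and 173 and 0 without normalization.

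The non-overlap of both miRs at 24 h is to be read against the array as a whole. In 24h_Cyt vs 24h_Ctrl, every cytokine array exceeded every control array for 16.5% of all miRs and for 24.4% of the 168 detected miRs. Some of the 168, miR-101a-3p among them, were counted as detected only through 24h_Cyt and 24h_Giv_Cyt, here and below. On the scanner's background-subtracted intensity, scaled between arrays, miR-101a-3p was 11.8, 11.7 and 14.6 in 24h_Ctrl and 38.3, 40.7 and 38.2 in 24h_Cyt, means of 12.7 ± 1.64 and 39.0 ± 1.40 (SD, n = 3). On the same scale miR-101b-3p was 42.4, 39.4 and 48.5 in 24h_Ctrl and 72.7, 70.7 and 68.4 in 24h_Cyt, means of 43.4 ± 4.63 and 70.6 ± 2.19. Neither miR's groups overlapped on this scale, and its log2FC values were 1.70 for miR-101a-3p (adjusted p = 0.000328) and 0.71 for miR-101b-3p (adjusted p = 0.0025) by limma. The share of all miRs without overlap was not taken on this scale.

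The rise of miR-101a-3p did not hold under every treatment of slide and brightness. With slide as a fixed block its log2FC was 0.55 (limma adjusted p = 0.462), and without slide 1 it was 0.54 (adjusted p = 0.167), while as a random block it was 0.57 (adjusted p = 0.0312). With array brightness as a covariate it was 0.16 (adjusted p = 0.678), and that of miR-101b-3p was -0.08 (adjusted p = 0.895). The call also ended without replicate 1 or 2 of 24h_Cyt or replicate 2 of 24h_Ctrl (adjusted p = 0.0824, 0.0521 and 0.0672). Brightness and the 24 h cytokine treatment moved together, so that their parts in the difference cannot be told apart.

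**Figure D2:**
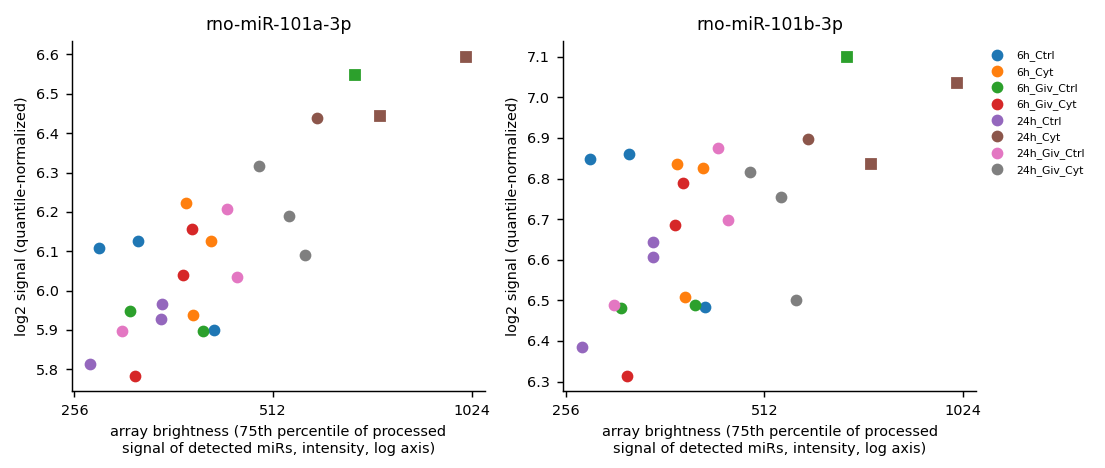
Log2 signal of miR-101a-3p (left) and miR-101b-3p (right) against array brightness in intensity units on a log axis, 1 point per array, coloured by group, with squares for slide 1. The 24h_Cyt arrays, at 596 to 1003, are among the brightest, and miR-101a-3p follows brightness more closely (r = 0.83) than miR-101b-3p (r = 0.59).

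Across the 24 arrays, the Pearson r between log2 brightness and the log2 signal was 0.83 for miR-101a-3p and 0.59 for miR-101b-3p (Spearman 0.71 and 0.54). The median r over the 168 detected miRs was -0.01. Without the 24h_Cyt arrays, r was 0.68 and 0.45. The points share the arrays, the slides and the normalization, and these values are descriptions.

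Givinostat was then compared with its absence in cytokine-exposed cells at 24 h. The log2FC of miR-101a-3p in 24h_Giv_Cyt vs 24h_Cyt was -0.29 (SE 0.14, interval -0.59 to -0.00156, unadjusted p = 0.0489, limma adjusted p = 0.909). That of miR-101b-3p was -0.23 (SE 0.17, interval -0.58 to 0.12, limma adjusted p = 0.961). Neither miR passed, where 0.132% of all miRs were called. Both miRs had every 24h_Giv_Cyt array below every 24h_Cyt array, as had 10.3% of all miRs. No slide held both groups, and array brightness was 487 to 571 in 24h_Giv_Cyt and 596 to 1003 in 24h_Cyt. The parts of Givinostat, slide and brightness in these differences cannot be told apart.

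The test of the study's methods, which pools a correlation over the spots of a miR and takes spots as well as arrays into the fit, gave other calls at the same log2FC. With it the adjusted p in 24h_Cyt vs 24h_Ctrl was 3.31e-33 for miR-101a-3p and 2.24e-05 for miR-101b-3p, and that of miR-101a-3p in 24h_Giv_Cyt vs 24h_Cyt was 8.36e-09. The 16 spots of a miR on an array were hybridized with the same RNA. The array mean was therefore used as the unit here.

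With Givinostat present at 24 h, cytokines gave a log2FC in 24h_Giv_Cyt vs 24h_Giv_Ctrl of 0.15 for miR-101a-3p (SE 0.14, interval -0.14 to 0.44, limma adjusted p = 0.617) and of 0.0043 for miR-101b-3p (SE 0.17, interval -0.35 to 0.35, limma adjusted p = 0.994). Here 0.528% of all miRs were called. miR-101a-3p was well above background on all 3 arrays with cytokines and on 0 of the 3 without. Its bound, formed as above, was 1.09-fold, but the interval of the difference spanned 0 and the difference was not called. Its background-subtracted intensity was 13.1, 19.2 and 18.3 in 24h_Giv_Ctrl and 29.9, 27.0 and 33.8 in 24h_Giv_Cyt. These groups did not overlap on that scale, unlike on the main one. The share of all miRs without overlap was not taken on that scale. On the main scale, every 24h_Giv_Cyt array exceeded every 24h_Giv_Ctrl array for 8.31% of all miRs. Within slides 3 and 4, each of which held both groups, the log2FC of miR-101a-3p was 0.19 and 0.24, and that of miR-101b-3p was 0.03 and 0.14. Array brightness on slide 3 was 487 in 24h_Giv_Cyt and 452 and 435 in 24h_Giv_Ctrl. On slide 4 it was 571 and 542 against 303. With brightness as a covariate over all arrays, the log2FC of miR-101a-3p was -0.0022. The parts of cytokines and brightness in these differences cannot be told apart.

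Whether the cytokine effect itself differed with Givinostat was tested as an interaction term, the effect with Givinostat minus the effect without. At 24 h it was -0.44 for miR-101a-3p (SE 0.20, interval -0.85 to -0.02, unadjusted p = 0.0391, limma adjusted p = 0.857) and -0.37 for miR-101b-3p (SE 0.24, interval -0.87 to 0.12, limma adjusted p = 0.908). At 6 h it was -0.19 and -0.09 (limma adjusted p = 0.997 for both). In both terms 0% of the miRs were called by limma, with 39 at an unadjusted p below 0.05 at 24 h and 12 at 6 h.

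**Figure D3:**
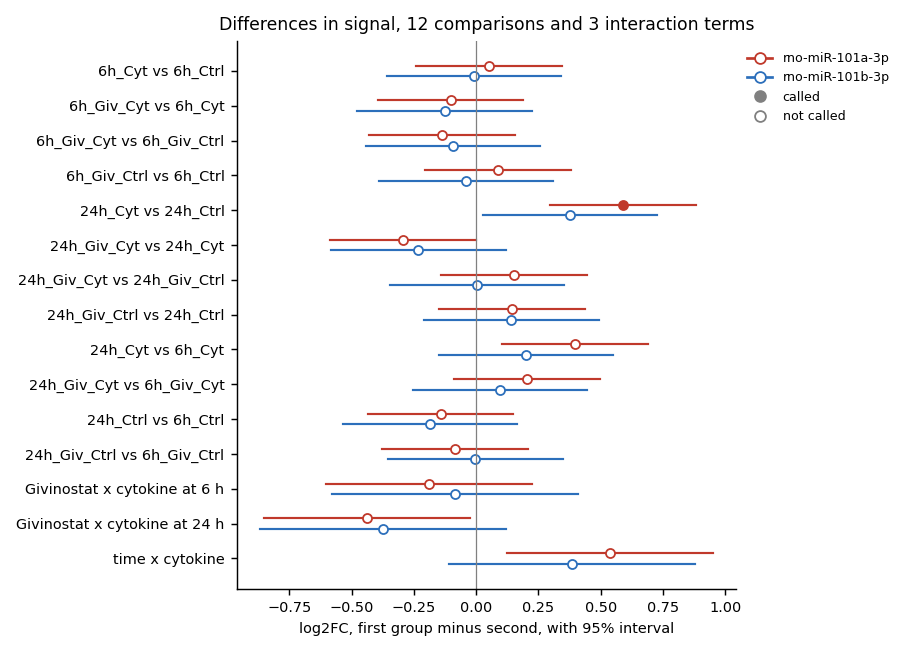
Log2FC of miR-101a-3p (red) and miR-101b-3p (blue) in the 12 comparisons and 3 interaction terms, first group minus second, with lines for the 95% interval of the limma fit. The one filled point is miR-101a-3p in 24h_Cyt vs 24h_Ctrl, at 0.59, and the intervals of most other comparisons span 0. In 24h_Ctrl vs 6h_Ctrl and 24h_Giv_Ctrl vs 24h_Ctrl, miR-101a-3p was not well above background in either group.

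Time was compared within each treatment. In 24h_Cyt vs 6h_Cyt the log2FC was 0.40 for miR-101a-3p (SE 0.14, interval 0.10 to 0.69, unadjusted p = 0.0107, limma adjusted p = 0.187) and 0.20 for miR-101b-3p (SE 0.17, interval -0.15 to 0.55, limma adjusted p = 0.703). Neither passed, where 0.792% of all miRs were called. Every 24h_Cyt array exceeded every 6h_Cyt array for both miRs, and for 8.71% of all miRs and 11.9% of the 168 detected miRs. Within slide 2, which held 1 array of 24h_Cyt and 2 of 6h_Cyt, the log2FC was 0.41 for miR-101a-3p and 0.23 for miR-101b-3p. Array brightness there was 596 in 24h_Cyt and 387 and 413 in 6h_Cyt, and its part was not tested. The time by cytokine term, the cytokine effect at 24 h minus that at 6 h, was 0.54 for miR-101a-3p (SE 0.20, interval 0.13 to 0.95, unadjusted p = 0.0135, limma adjusted p = 0.356) and 0.39 for miR-101b-3p (SE 0.24, interval -0.11 to 0.88, limma adjusted p = 0.727), with 0.528% of all miRs called. For miR-101a-3p this term includes 24h_Ctrl and 6h_Ctrl, where no array was well above background.

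The remaining time comparisons were smaller. In 24h_Giv_Cyt vs 6h_Giv_Cyt, where 0.396% of all miRs were called, the log2FC was 0.21 for miR-101a-3p (SE 0.14) and 0.09 for miR-101b-3p (SE 0.17), with limma adjusted p = 0.868 and 0.988. With the pooled correlation over spots and without normalization, miR-101a-3p was called there (limma adjusted p = 0.000158 and 0.0126). In 24h_Ctrl vs 6h_Ctrl the log2FC was -0.19 for miR-101b-3p, and no fold was read for miR-101a-3p, which was not well above background on the arrays of either group. In 24h_Giv_Ctrl vs 6h_Giv_Ctrl it was -0.09 and -0.0030 (limma adjusted p of 0.994 or above in these comparisons). These last comparisons had 0% of the miRs called by limma, with 39 and 30 at an unadjusted p below 0.05.

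At 6 h neither miR passed in any comparison. In 6h_Cyt vs 6h_Ctrl the log2FC was 0.05 for miR-101a-3p (interval -0.24 to 0.34) and -0.0081 for miR-101b-3p (interval -0.36 to 0.34). In 6h_Giv_Cyt vs 6h_Cyt it was -0.10 and -0.13. In 6h_Giv_Cyt vs 6h_Giv_Ctrl it was -0.14 and -0.09. In 6h_Giv_Ctrl vs 6h_Ctrl it was 0.09 and -0.04, and within slide 2, without the slide 1 array, -0.12 and -0.25. miR-101a-3p was well above background on 0 or 1 array of each 6 h group, so that these differences are between signals near background. In 24h_Giv_Ctrl vs 24h_Ctrl the log2FC of miR-101b-3p was 0.14, and no fold was read for miR-101a-3p, which was not well above background in either group. The limma adjusted p was 0.924 or above for both miRs in these 5 comparisons, and 0% of the miRs were called, with 24 to 34 at an unadjusted p below 0.05.

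The pair moved together from array to array. Pearson r between the log2 signals of miR-101a-3p and miR-101b-3p was 0.90 over 24 arrays (Spearman 0.90), and 0.97 for deviations from the group means. It was 0.88 over the 21 arrays outside slide 1. These arrays share slides, brightness and normalization, and 20 of 21 bases are the same in the pair. Moving together was not particular to the pair: by r with miR-101b-3p, miR-101a-3p ranked 14 among the detected miRs. For deviations from the group means, miR-148b-3p and miR-598-3p also had an r of 0.97 with miR-101b-3p.

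The difference between the pair was taken on each array and compared between groups, which removes what an array does to both alike. In 24h_Cyt vs 24h_Ctrl the log2FC of miR-101a-3p exceeded that of miR-101b-3p by 0.21 (two-sided exact permutation p = 0.1, the smallest that 3 against 3 arrays allow, adjusted p = 0.3 over 12 comparisons). It exceeded it by 0.20 in 24h_Cyt vs 6h_Cyt and by 0.15 in 24h_Giv_Cyt vs 24h_Giv_Ctrl, each with an exact p = 0.1. In 24h_Giv_Ctrl vs 6h_Giv_Ctrl, without cytokines, the difference was -0.08 with the same exact p = 0.1. In 24h_Giv_Cyt vs 24h_Cyt the difference was -0.06 (exact p = 0.3). Without normalization between arrays, both miRs rose alike in 24h_Cyt vs 24h_Ctrl, by 1.11 and 1.14 on the log2 scale, where the median of the 168 detected miRs was 0.70, and the difference was -0.03 (exact p = 0.7).

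Each probe was also fitted on its own, with p adjusted over 1806 probes. In 24h_Cyt vs 24h_Ctrl both probes of miR-101a-3p passed. Its longer probe read 6.05, 5.87 and 6.01 in 24h_Ctrl and 6.67, 6.55 and 6.55 in 24h_Cyt, a log2FC of 0.62 (SE 0.14, limma adjusted p = 0.019). Its shorter probe read 5.81, 5.76 and 5.92 in 24h_Ctrl and 6.52, 6.34 and 6.33 in 24h_Cyt, a log2FC of 0.56 (SE 0.14, limma adjusted p = 0.0246). Dropping the last base of the probe, which pairs with base 1 of the miR, thus left a similar change.

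For miR-101b-3p neither probe passed. Its longer probe gave a log2FC of 0.41 (SE 0.18, limma adjusted p = 0.25), from 6.87, 6.61 and 6.92 in 24h_Ctrl to 7.31, 7.12 and 7.20 in 24h_Cyt. Its shorter probe gave 0.35 (SE 0.15, limma adjusted p = 0.263), from 6.34, 6.16 and 6.37 to 6.76, 6.56 and 6.59. The arrays of these groups did not overlap for either probe, and the share of all probes without overlap was not taken. In 24h_Giv_Cyt vs 24h_Cyt the 4 probes of the pair gave -0.33, -0.25, -0.27 and -0.19 (longer and shorter probe of miR-101a-3p, then of miR-101b-3p), each with an adjusted p = 0.991.

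The 5p arms met the detection rule on 0 arrays, with 0 spots marked on each. Their log2 signals lay between 5.34 and 5.46 for miR-101a-5p and between 5.32 and 5.43 for miR-101b-5p, and their background-subtracted intensities were below 0 on all 24 arrays. No comparison or term passed for them (lowest limma adjusted p = 0.192), so no fold was read.

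**Figure D4:**
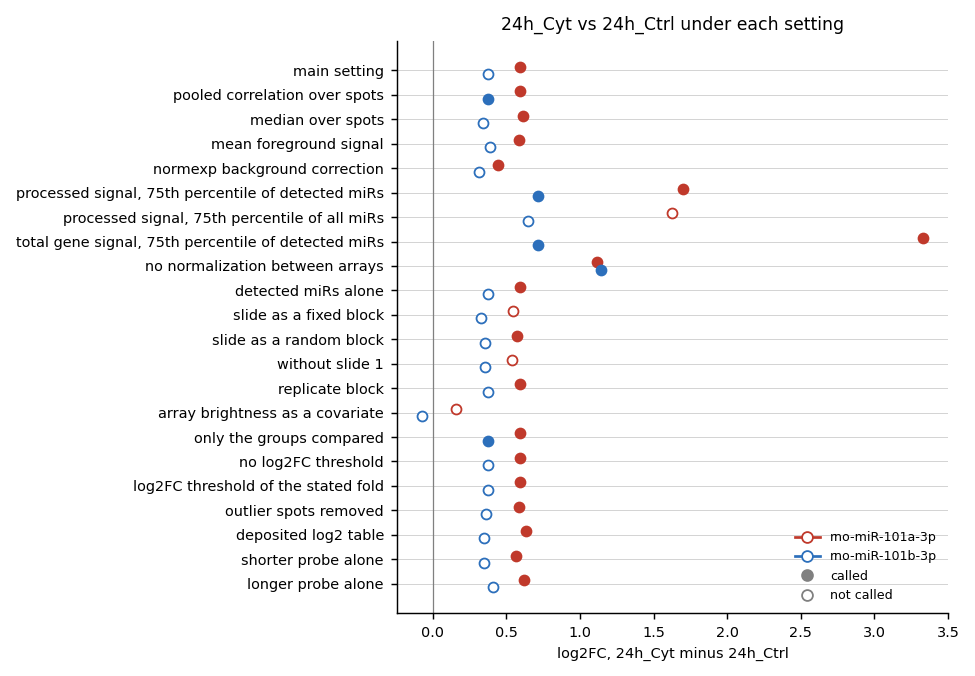
Log2FC in 24h_Cyt vs 24h_Ctrl of miR-101a-3p (red) and miR-101b-3p (blue) under the main setting and 21 alternatives, with filled points for calls. miR-101a-3p is above 0 under all of them, from 0.16 with brightness as a covariate to 3.33 with the scanner's total signal, whose values for 24h_Ctrl sit near a floor. Alternatives that change only the test, the miRs tested or the threshold keep the main value.

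The seed relative miR-144-3p did not reach the detection rule on an array, and its log2 signal was 5.46 in 24h_Ctrl and 5.40 in 24h_Cyt, so that miR-101a-3p and miR-101b-3p were the only detected miRs with this seed among those matched to a sequence.

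Beside the pair, 8 other miRs known to act on Ezh2 were read, of which 7 were among the 168 detected. In 24h_Cyt vs 24h_Ctrl, 0 of the 8 were called higher and 2 were called lower (2.64% and 1.32% of all miRs), with a median log2FC of 0.0069 (median of all miRs -0.01). The 2 were let-7b-5p, which fell by 0.43 (SE 0.10, adjusted p = 0.0139), and let-7c-5p, which fell by 0.38 (SE 0.11, adjusted p = 0.0452), in the limma fit. Neither was called with slide as a fixed block, without slide 1 or with brightness as a covariate. The same held with outlier spots removed, with scaling to all miRs and without normalization. It also held without replicate 1 or 2 of 24h_Ctrl or replicate 2 of 24h_Cyt. let-7c-5p alone lost its call without 14 further arrays, each left out alone. It also lost it with the correlation pooled over spots, the median over spots, normexp correction, slide as a random block, the replicate block and the deposited log2 table. Some settings called miRs of the list higher. With the background-subtracted signal scaled to the detected miRs, 2 of the 8 were called higher and 3 lower, against 39 and 37 of all miRs. The total signal so scaled also gave 2 and 3, against 35 and 15. Without normalization the counts were 4 and 0, against 173 and 0. With the correlation pooled over spots they were 1 and 1, against 27 and 21. The let-7 miRs hold back cell growth genes. The highest of the list was miR-124-3p, a neuronal miR, at 0.24 (SE 0.11, limma adjusted p = 0.207). None of the 8 was called in 24h_Giv_Cyt vs 24h_Cyt (median log2FC 0.03, median of all miRs 0.0028) or 24h_Giv_Cyt vs 24h_Giv_Ctrl (median -0.06, median of all miRs -0.0034). Of all miRs, 0.132% and 0.528% were called in these comparisons.

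Of 7 miRs known to rise in β-cells under cytokines, 6 were called higher in 24h_Cyt vs 24h_Ctrl (2.64% of all miRs were), with a median log2FC of 0.58 (median of all miRs -0.01). With slide as a fixed block, without slide 1, with brightness as a covariate or with scaling to all miRs, miR-146a-5p was the 1 of the 7 still called. The count was 3 without replicate 2 of 24h_Ctrl, and 4 without replicate 1 of 24h_Ctrl or replicate 1 or 2 of 24h_Cyt. The highest was miR-29b-3p, which acts on the anti-apoptotic protein Mcl1, at 1.04 (SE 0.16, limma adjusted p = 0.000538). miR-146a-5p, a brake on NF-κB signalling, had 0.58 (SE 0.03, limma adjusted p = 4.91e-10). It was well above background on 6 of 24 arrays, those of 24h_Cyt and 24h_Giv_Cyt. Its bound, formed on the means as above, was 1.05-fold. miR-21-5p, an NF-κB-induced miR, had 0.56 (SE 0.15, limma adjusted p = 0.0357). The lowest was miR-34a-5p, a p53 target, at -0.0083 (SE 0.04, limma adjusted p = 0.918), which met the detection rule on 0 arrays.

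In 24h_Giv_Cyt vs 24h_Cyt, 1 of these 7 was called (0.132% of all miRs were), miR-146a-5p, which was higher by 0.16 (SE 0.03, limma adjusted p = 0.0429). The median of the 7 was -0.18 (median of all miRs 0.0028), with 2 of them above 0. In 24h_Giv_Cyt vs 24h_Giv_Ctrl, where 0.528% of all miRs were called, miR-146a-5p was again the 1 called (limma adjusted p = 9.47e-12). Its bound, formed as above, was 1.18-fold. The median of the 7 was 0.28 (median of all miRs -0.0034). The difference between these miRs and the pair was not tested.

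The miRs whose signals followed miR-101a-3p most closely over the 24 arrays, among the 168 detected, were miR-598-3p (r = 0.97), miR-21-5p (r = 0.95), miR-153-3p (r = 0.94), miR-29c-3p (r = 0.91) and miR-101b-3p (r = 0.90). The first 4 were called in 24h_Cyt vs 24h_Ctrl, with log2FC values of 0.51, 0.56, 0.47 and 0.71 (limma adjusted p = 0.0452, 0.0357, 0.0178 and 0.0283). None of the 4 was called with slide as a fixed block, without slide 1 or with brightness as a covariate. Those closest to miR-101b-3p were miR-148b-3p (r = 0.97), miR-124-3p (r = 0.95), miR-301a-3p (r = 0.95), miR-425-5p (r = 0.94) and miR-598-3p (r = 0.93). Of these, miR-598-3p was called and the other 4 were not, with log2FC values of 0.29, 0.24, 0.28 and 0.18. All 9 correlated with array brightness, at r = 0.52 to 0.85, and the part of brightness in their likeness to the pair was not tested.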

How the data were processed

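The authors deposited, for each of 24 one-colour Agilent SurePrint G3 rat miRNA arrays, the scanner's spot intensity on a linear scale (Agilent Feature Extraction 10.7.3.1 per the file headers, 9.1 per the labels), not normalized between arrays, and a table of log2 values per miR and sample. Following the study's methods, the spots' median foreground was used with no background correction, 434 negative and 281 positive control spots were removed, and quantile normalization between arrays was followed by log2. The 16 spots of a miR were averaged per array, and limma 3.58.1 (R 4.3.3; lmFit, eBayes) was fitted to 8 group means with 16 residual degrees of freedom. The study's methods instead pooled a correlation over spots, and their log2FC threshold of 0.1375 is a fold of 1.1, while they state 1.15. Benjamini-Hochberg adjustment ran over 758 miRs within each of 12 comparisons and 3 interaction terms. Exact permutation tests used scipy 1.17.1 and figures matplotlib 3.10.9. The fit was tested on simulated data.

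The alternatives were the summaries of spots, other signals and backgrounds, scalings, blocks, thresholds and left-out arrays named in the closing section. The miRs named were the members and their probes, the seed relative, list members that were called or were the highest or lowest of their list, and the 5 closest patterns. Members and lists were chosen with earlier results of these data known. Replicate numbers did not pair the arrays: same-numbered arrays correlated between -0.93 and 0.96 in their deviations (median 0.10). The number of arrays limits the precision.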

Additional observations from a re-analysis of the deposited data

How the results depend on the processing

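All values here are log2FC unless named otherwise, and the cause of a change was not tested. In 24h_Cyt vs 24h_Ctrl, miR-101a-3p was above 0 under all 21 alternatives and stayed called under 17. Among the 17 was the fit of detected miRs alone, which miR-101a-3p entered only through 24h_Cyt and 24h_Giv_Cyt. That fit is therefore no support for the call. miR-101a-3p lost the call with slide as a fixed block (0.55), without slide 1 (0.54) and with array brightness as a covariate (0.16). The call was also lost with the background-subtracted signal scaled to the 75th percentile of all miRs (1.62, adjusted p = 0.0844). Over those 21 the adjusted p ran from 3.31e-33 to 0.678. For miR-101a-3p the log2FC stayed 0.59 by design with pooled spots, detected miRs alone, the replicate block, only the groups compared or another threshold. Its sign could not change under these settings, and the other thresholds could not end its call in 24h_Cyt vs 24h_Ctrl. miR-101b-3p gained a call there with the correlation pooled over spots (0.38), the background-subtracted and the total signal scaled to the detected miRs (0.71 for both), no normalization between arrays (1.14) and only the groups compared (0.38, adjusted p = 0.0413). Normexp correction, the mean foreground signal, slide as a random block, detected miRs alone, no log2FC threshold and the 1.15-fold threshold changed no call of the pair in this comparison. limma warned of many residual variances at 0 in the fit of the total signal, so its p-values are unreliable.

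Replicate numbers did not pair the arrays (10 of 24 correlated best with their own number). With the replicate block, miR-101a-3p was at 0.59 in 24h_Cyt vs 24h_Ctrl (adjusted p = 0.0214) and the pair's calls were the same in all comparisons and terms, while the number of calls over all miRs went from 30 to 28.

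Pooling the correlation over spots also gave calls for miR-101a-3p in 24h_Giv_Cyt vs 24h_Cyt (-0.29), 24h_Giv_Cyt vs 24h_Giv_Ctrl (0.15), 24h_Cyt vs 6h_Cyt (0.40), 24h_Giv_Cyt vs 6h_Giv_Cyt (0.21), the Givinostat by cytokine term at 24 h (-0.44) and the time by cytokine term (0.54), and for miR-101b-3p in these terms (-0.37 and 0.39). Without normalization, calls appeared in 24h_Cyt vs 6h_Cyt (0.91 for miR-101a-3p and 0.84 for miR-101b-3p), 24h_Giv_Cyt vs 24h_Giv_Ctrl (0.54 and 0.47), 24h_Giv_Cyt vs 6h_Giv_Cyt (0.54 for miR-101a-3p alone) and the time by cytokine term (1.02 for both). Over all miRs, 30 were called in 24h_Cyt vs 24h_Ctrl in the main fit. The count was 48 with the pooled correlation or with no log2FC threshold, 76 and 50 with the background-subtracted and total signals scaled to the detected miRs, 19 with scaling to all miRs, 173 without normalization (all higher), 45 with only the groups compared, 1 with slide as a fixed block, 3 without slide 1 and 3 with brightness as a covariate.

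Values that were not called changed sign. Brightness as a covariate turned miR-101a-3p in 24h_Giv_Cyt vs 24h_Giv_Ctrl (-0.0022), 6h_Cyt vs 6h_Ctrl (-0.030) and 6h_Giv_Ctrl vs 6h_Ctrl (-0.051), and miR-101b-3p in 24h_Cyt vs 24h_Ctrl (-0.075, from 0.38), 24h_Cyt vs 6h_Cyt (-0.15, from 0.20), 24h_Giv_Cyt vs 24h_Giv_Ctrl (-0.16), 24h_Giv_Ctrl vs 6h_Giv_Ctrl (0.059), 24h_Giv_Cyt vs 6h_Giv_Cyt (-0.11), 6h_Giv_Cyt vs 6h_Giv_Ctrl (0.014) and the Givinostat by cytokine term at 6 h (0.11). Leaving out slide 1 turned miR-101a-3p in 24h_Giv_Ctrl vs 6h_Giv_Ctrl (0.12), 6h_Giv_Ctrl vs 6h_Ctrl (-0.12), 6h_Giv_Cyt vs 6h_Giv_Ctrl (0.070) and the 6 h term (0.018), and miR-101b-3p in 24h_Giv_Ctrl vs 6h_Giv_Ctrl (0.20), 6h_Giv_Cyt vs 6h_Giv_Ctrl (0.11) and the 6 h term (0.12). Slide as a fixed block turned miR-101a-3p in 6h_Cyt vs 6h_Ctrl (-0.012) and 6h_Giv_Ctrl vs 6h_Ctrl (-0.030) and miR-101b-3p in 24h_Giv_Ctrl vs 24h_Ctrl (-0.020). miR-101b-3p in 24h_Giv_Cyt vs 24h_Giv_Ctrl turned with the deposited log2 table (-0.018), the median over spots (-0.017), outlier spots removed (-0.048), scaling to all miRs (-0.22) and the shorter probe (-0.013). In 24h_Giv_Ctrl vs 6h_Giv_Ctrl it turned with the deposited table (0.040), the median over spots (0.038), the longer probe (0.047) and scaling to all miRs (0.076). In 6h_Cyt vs 6h_Ctrl it turned with the longer probe (0.0052), the mean foreground (0.0033), the detected-miR scaling of the background-subtracted (0.047) and total signals (0.040) and no normalization (0.12). In 6h_Giv_Ctrl vs 6h_Ctrl it turned without normalization (0.25) and with the shorter probe (0.0072). miR-101a-3p turned in 24h_Giv_Ctrl vs 6h_Giv_Ctrl with the total signal (0.037).

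Without normalization, the difference of the pair turned in 24h_Cyt vs 24h_Ctrl (-0.029), 24h_Giv_Ctrl vs 24h_Ctrl (-0.094), 24h_Giv_Ctrl vs 6h_Giv_Ctrl (0.0078), 24h_Giv_Cyt vs 24h_Cyt (0.0027), 6h_Cyt vs 6h_Ctrl (-0.026), 6h_Giv_Ctrl vs 6h_Ctrl (-0.031) and 6h_Giv_Cyt vs 6h_Giv_Ctrl (0.031).

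Leaving out each of the 24 arrays in turn, miR-101a-3p ran from 0.54 to 0.62 in 24h_Cyt vs 24h_Ctrl, with an adjusted p of 0.0015 to 0.0824, the lowest without replicate 1 of 6h_Giv_Ctrl. miR-101b-3p ran from 0.30 to 0.43 there, and no single array gave it a call (adjusted p = 0.0907 to 0.426). Signs that changed with 1 array left out lay in these ranges. For miR-101a-3p they were -0.021 to 0.13 in 6h_Cyt vs 6h_Ctrl, -0.18 to 0.0022 in 6h_Giv_Cyt vs 6h_Cyt, -0.25 to 0.070 in 6h_Giv_Cyt vs 6h_Giv_Ctrl, -0.12 to 0.20 in 6h_Giv_Ctrl vs 6h_Ctrl, -0.20 to 0.12 in 24h_Giv_Ctrl vs 6h_Giv_Ctrl and -0.31 to 0.018 in the 6 h term. For miR-101b-3p they were -0.13 to 0.10 in 6h_Cyt vs 6h_Ctrl, -0.23 to 0.014 in 6h_Giv_Cyt vs 6h_Cyt, -0.20 to 0.11 in 6h_Giv_Cyt vs 6h_Giv_Ctrl, -0.25 to 0.063 in 6h_Giv_Ctrl vs 6h_Ctrl, -0.095 to 0.10 in 24h_Giv_Cyt vs 24h_Giv_Ctrl, -0.046 to 0.19 in 24h_Giv_Cyt vs 6h_Giv_Cyt, -0.11 to 0.20 in 24h_Giv_Ctrl vs 6h_Giv_Ctrl and -0.19 to 0.12 in the 6 h term. With 1 spot in place of 8 as the rule, miR-101a-3p was above background on 19 arrays, and with all 16 spots on 8. miR-101b-3p was on 24 and 20, and 0 calls of the 5p arms appeared under any alternative run on them.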
